A study of Zea mays with 6 samples.

Results

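The probe sets for chitinases, other pathogenesis-related (PR) proteins and proteinase inhibitors were followed in maize roots. A probe set is the group of short probes on an Affymetrix array that together report 1 transcript. Members were the probe sets Zm.847.1.S1_at and Zm.4270.2.A1_a_at and every probe set of the authors' comparison table whose gene title or target description named a chitinase, a pathogenesis-related protein, thaumatin, zeamatin, a proteinase or protease inhibitor, a Bowman-Birk inhibitor, a beta-1,3-glucanase, a wound-induced protein, a defensin or a cystatin. This gave 34 of the 12255 probe sets in that table, from 26 transcript clusters of the array design. By protein class they were 8 chitinases, 4 beta-1,3-glucanases, 3 thaumatin-like proteins, 2 PR-1 proteins, 2 other pathogenesis-related proteins, 1 Bowman-Birk inhibitor, 4 wound-induced proteins and 10 cystatins. No defensin was matched. A gene symbol was given for 13 of the 34, and the other 21 were known by their similarity to a described protein.

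The study compared roots of intercropped maize (IM1, IM2 and IM3), grown together with peanut, with roots of monocropped maize (M1, M2 and M3), grown alone. The maize was cultivar Nongda108 and the peanut cultivar Luhua14, and roots of both groups were taken at the reproductive stage. All plants stood in a greenhouse in natural light, on a calcareous sandy soil to which nitrogen, phosphorus, potassium, magnesium, copper and zinc salts had been added. Total RNA was labelled as biotinylated cRNA and hybridised to 1 array per sample. The labels do not say whether the 3 samples of a group came from separate plants or pots, so a p-value here reflects only how much these samples varied, which may be technical.

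PR proteins are made by plants in answer to microbes, wounding and several hormones, and many of them are secreted. Chitinases cut the chitin of fungal walls and beta-1,3-glucanases cut the glucans beside it, while thaumatin-like proteins act on fungal membranes. PR-1 proteins are widely used as markers of the salicylic acid response, and proteinase inhibitors block digestive or microbial proteases, Bowman-Birk inhibitors those with a serine and cystatins those with a cysteine in the active site. Some members of these families are also made in healthy roots.

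Signals are the authors' deposited intensities on a linear scale with no unit. Array medians were 134.5 to 141.8, and 25.6% to 28.0% of all probe sets lay below a signal of 50. Log signals correlated at 0.932 to 0.9703 (Pearson's r) within groups and at 0.9117 to 0.954 between groups, and IM1 was closer to M1 (0.9525) than to IM2 (0.9433) or IM3 (0.932). The bioB hybridisation control stood at 1272 on M1 and at 141.8 to 534 on the other arrays. The root markers zrp4 and ys1 summed to 548 to 747 on intercropped and to 420 to 712 on monocropped arrays. Their log2 differences had opposite signs, 0.49 for zrp4 and -0.37 for ys1. The 9 green leaf probe sets summed to 1222 to 1622 on intercropped and to 1190 to 1595 on monocropped arrays, and 11 seed protein (zein) probe sets to 6928 to 7632 on intercropped and to 7598 to 7665 on monocropped arrays. For each of the 3 marker lists the ranges of the groups overlapped, none of the markers was at 0, and their part in the results below was not tested.

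No member passed the test. With limma's moderated test over all 13116 probe sets tested, 0 of 34 members had an adjusted p under 0.05, which was also the share over the whole array (0.0%). The smallest adjusted p among the members was 0.204. At an unadjusted p under 0.05 limma gave 6 members lower and 2 higher in intercropped roots, against 5.51% lower and 5.6% higher of all probe sets tested (11.1% in both directions). The signals of 7 members were lower on every intercropped array than on any monocropped one, where 8.69% of all probe sets tested were, and 1 member was higher on every intercropped array, where 8.29% were (17.0% in either direction). The log2 difference, intercropped minus monocropped, was below 0 for 25 of 34 members (73.5%) and for 48.1% of all probe sets. Its median was -0.21 over the members and 0.011 over all probe sets. With 1 probe set for each of the 26 clusters the median was -0.23. These shares describe the list, which was chosen with earlier results of these data known. In whole roots, fewer cells of a type and less RNA per cell cannot be told apart.

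**Figure D1:**
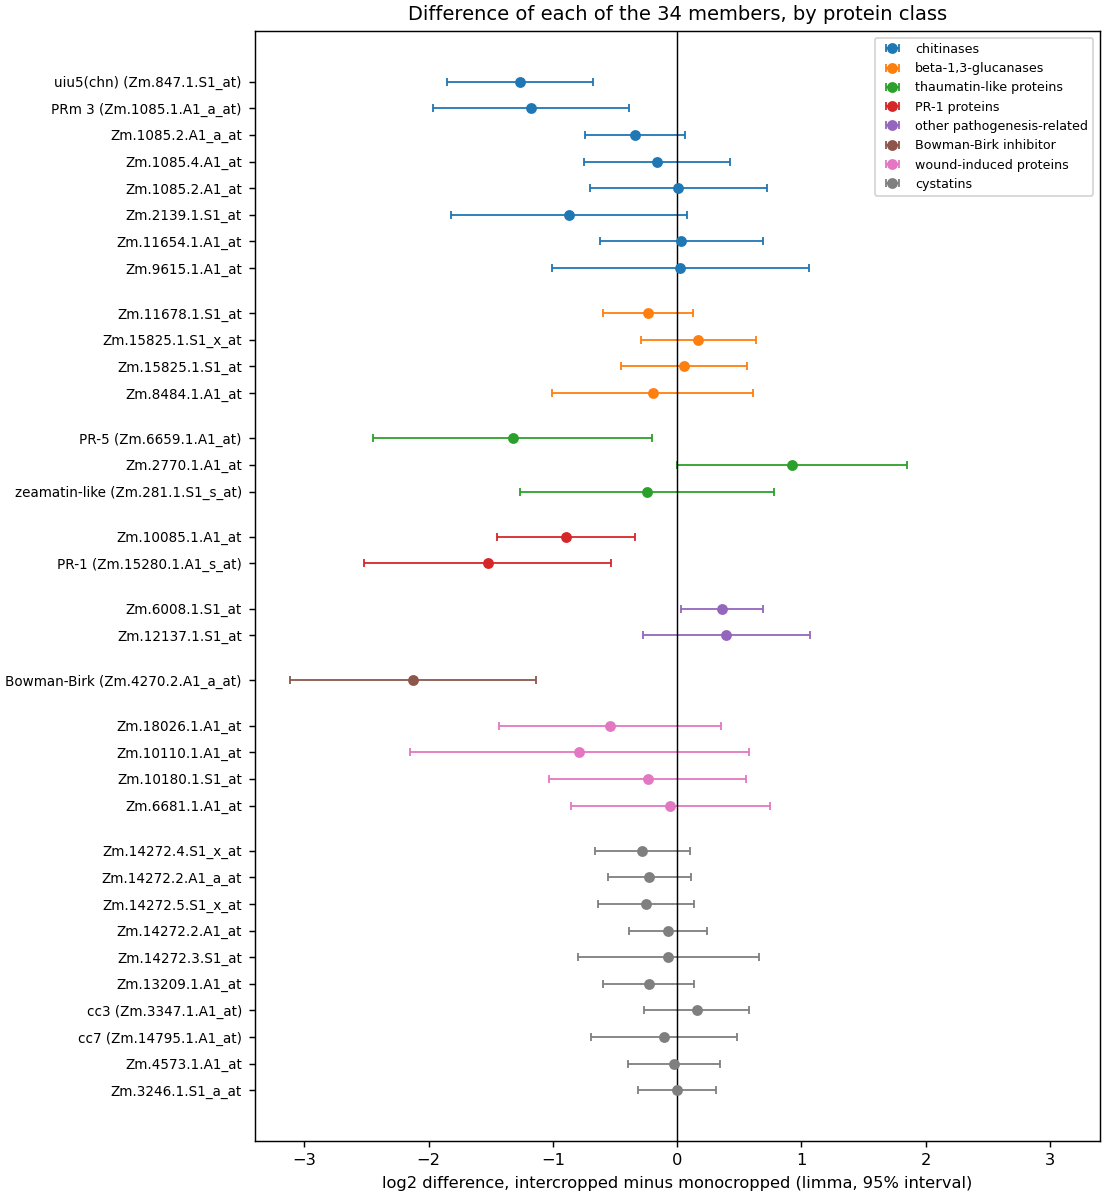
Log2 difference (intercropped minus monocropped, horizontal axis) of the 34 members, with points for limma's estimates, bars for 95% intervals and colours for the protein classes. The Bowman-Birk inhibitor lies farthest to the left at -2.12 and the thaumatin-like Zm.2770.1.A1_at farthest to the right at 0.92, while the 10 cystatins lie between -0.28 and 0.16.

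The members with large differences came from several classes, and the classes were not uniform. A log2 difference of -1 or lower was seen for 5 members, the chitinases uiu5(chn) and PRm 3, PR-5, PR-1 and the Bowman-Birk inhibitor, against 151 of all 13116 probe sets (1.15%). The cumulative plot shows both distributions.

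**Figure D2:**
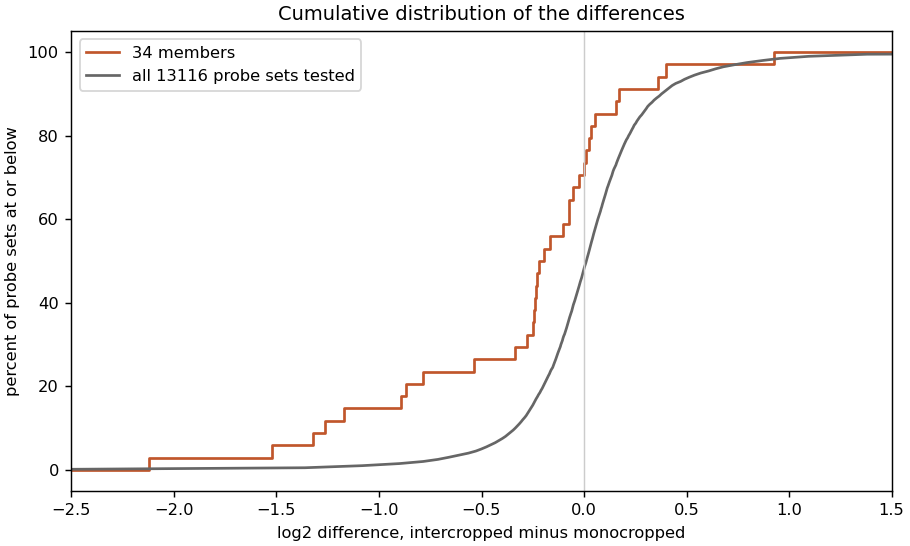
Percent of probe sets (vertical axis) at or below each log2 difference (intercropped minus monocropped, horizontal axis), for the 34 members in orange and all 13116 probe sets tested in grey. At a difference of 0 the member curve stands at 73.5% and the curve of all probe sets at 48.1%.

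The Bowman-Birk inhibitor (Zm.4270.2.A1_a_at, gene LOC100037814, also listed as umc1246), a putative inhibitor of serine proteases such as trypsin, had the lowest difference of all members. Its signals were 75.3, 202 and 176 on IM1, IM2 and IM3, against 391.5, 822 and 688 on M1, M2 and M3. All intercropped signals were below all monocropped ones, and in both groups the array numbered 1 was the lowest. The mean was 151 ± 67.0 in intercropped and 634 ± 220 in monocropped roots (SD, n = 3 each), a log2 difference of -2.12 ± 0.42 (SE, 95% interval -3.11 to -1.13, limma adjusted p = 0.204). Over the alternatives run, the limma adjusted p ran from 0.0577, without both arrays numbered 1, to 0.595. It was the only serine protease inhibitor found by the words of the rule.

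The chitinase uiu5(chn) (Zm.847.1.S1_at) is described as an acidic class I enzyme. Chitinases of class I carry a chitin-binding domain beside the catalytic one. It had signals of 578, 943 and 537 on the 3 intercropped arrays, against 1640, 1956 and 1265 on the 3 monocropped arrays. The groups did not overlap, and IM2, the highest intercropped array, was well below M3, the lowest monocropped one. Its log2 difference was -1.26 ± 0.25 (SE, 95% interval -1.85 to -0.68, limma adjusted p = 0.204). With 1 array left out it ran from -1.52 to -1.11.

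Of the chitinases, 4 probe sets came from the cluster of PRm 3, and they differed among themselves. Only Zm.1085.1.A1_a_at has the title PRm 3. The others have other transcript numbers in the array design and may report related transcripts. PRm 3 is a maize chitinase whose clone came from leaves treated with mercuric chloride, and the reference table lists its gene also as chn1. The probe set Zm.1085.1.A1_a_at gave 276, 410 and 706.5 on IM1, IM2 and IM3, against 774, 985 and 1201 on M1, M2 and M3. The groups were separate, with IM3 just below M1. The log2 difference was -1.17 ± 0.34 (SE, 95% interval -1.96 to -0.38, limma adjusted p = 0.29). It lay at -0.85 without IM1 and at -1.53 without IM3.

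The other 3 probe sets of this cluster had overlapping groups. Zm.1085.2.A1_a_at had 167, 181 and 244 on intercropped arrays, against 250.3, 235 and 253 on monocropped arrays, with IM3 inside the monocropped range (log2 difference -0.34 ± 0.17, SE). Zm.1085.2.A1_at had 85.2, 113 and 195, against 102, 126 and 142, with the monocropped range inside the intercropped one (0.0105 ± 0.30, SE). Zm.1085.4.A1_at had 63.4, 48.7 and 65.0, against 46.5, 78.9 and 77.0 (-0.16 ± 0.25, SE). A lower signal on all intercropped arrays was thus seen for 1 of the 4 probe sets, beside 8.69% of all probe sets tested. In 3 of the 4 the highest intercropped signal was on IM3 by a clear margin.

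The remaining 3 chitinases were similar to Arabidopsis enzymes, with a similarity graded as weak. Zm.2139.1.S1_at, similar to an acidic chitinase, had 301, 136 and 130 on intercropped arrays, against 509, 281 and 228 on monocropped arrays. The replicate numbered 1 was the highest of each group, and IM1 exceeded M2 and M3. Its log2 difference was -0.87 ± 0.40 (SE, 95% interval -1.82 to 0.079, limma adjusted p = 0.492). Zm.9615.1.A1_at, similar to the same acidic chitinase, had 397, 209 and 105, against 194, 248 and 172, so that IM1 and IM3 lay outside the monocropped range on opposite sides (0.0241 ± 0.44, SE). Zm.11654.1.A1_at, similar to another chitinase, was close to a signal of 50 on most arrays, with 61.2, 64.5 and 38.0, against 54.1, 39.4 and 65.8 (0.0328 ± 0.28, SE). Over the 8 chitinases the median log2 difference was -0.25, with 5 below 0 (62.5%) and 3 above 0, beside 48.1% below 0 over all probe sets tested. The groups of 2 (25.0%) were apart, beside 17.0% of all probe sets tested in either direction.

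**Figure D3:**
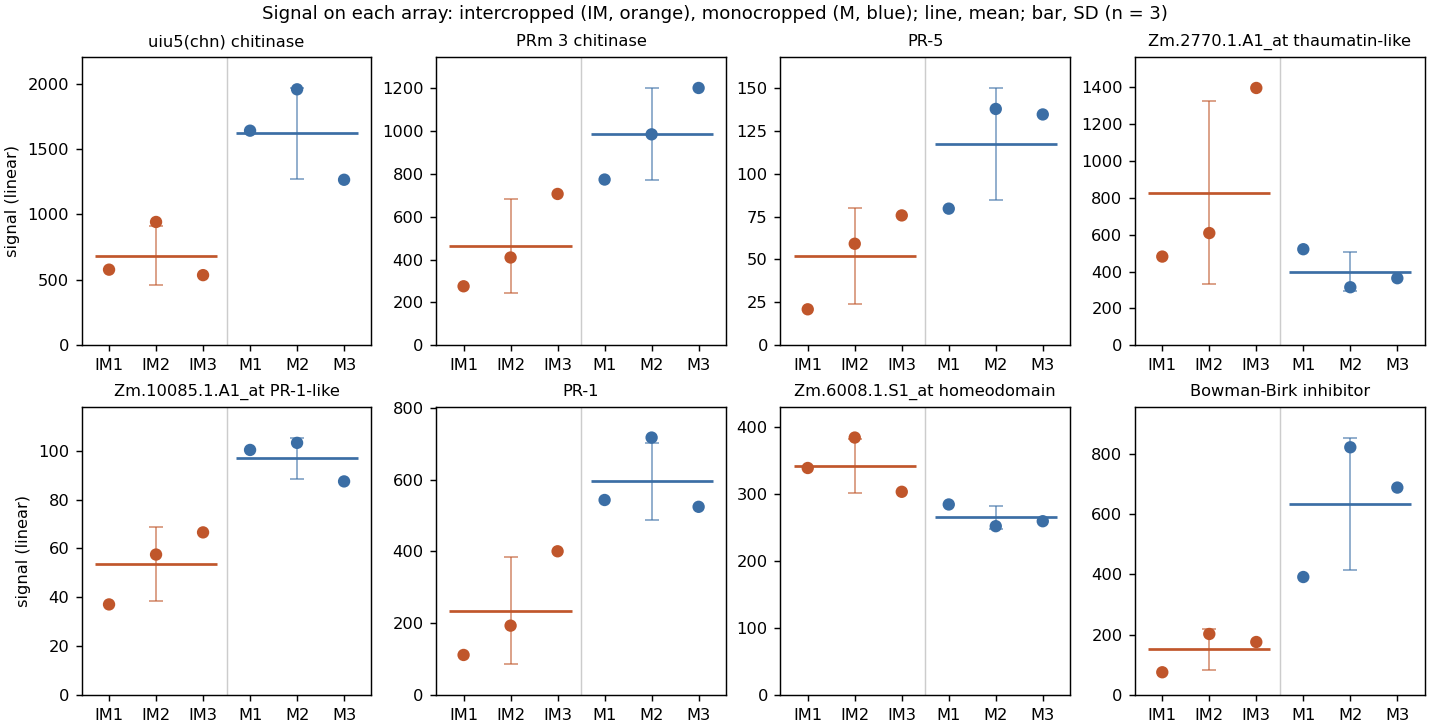
Signal (vertical axis, linear, from 0) of 8 members on each array, intercropped in orange on the left and monocropped in blue on the right, with lines for the means and bars for the SD (n = 3). In 6 panels (uiu5(chn), PRm 3, PR-1, Zm.10085.1.A1_at, PR-5 and the Bowman-Birk inhibitor) all intercropped points lie below all monocropped points, in the homeodomain panel all lie above, and in the Zm.2770.1.A1_at panel the groups overlap.

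Both PR-1 proteins had separate groups, as did 17.0% of all probe sets tested. PR-1 (Zm.15280.1.A1_s_at, also listed as prp4) gave 111, 193 and 400.3 on IM1, IM2 and IM3, against 543, 717 and 524 on M1, M2 and M3. The intercropped arrays spread 3.59-fold from lowest to highest and the monocropped arrays 1.37-fold. The mean was 235 ± 149 in intercropped and 595 ± 106 in monocropped roots (SD, n = 3 each), and the log2 difference was -1.52 ± 0.42 (SE, 95% interval -2.52 to -0.53, limma adjusted p = 0.287). It moved between -2.01 without IM3 and -1.08 without IM1. The suffix of this probe set marks probes that can also match related transcripts, so that more than 1 PR-1 gene may add to its signal.

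Zm.10085.1.A1_at, with weak similarity to an Arabidopsis precursor of a PR-1 protein, had 37.1, 57.5 and 66.5 on intercropped arrays, against 100.3, 103 and 87.4 on monocropped arrays. All its intercropped signals were lower than all monocropped ones, and IM1 was below a signal of 50. The log2 difference was -0.89 ± 0.24 (SE, 95% interval -1.45 to -0.34, limma adjusted p = 0.278). The median of the 2 members was -1.21. PR-1 and Zm.10085.1.A1_at shared the order of the intercropped arrays, lowest on IM1 and highest on IM3, which PRm 3 and PR-5 had as well.

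The thaumatin-like proteins, the family of PR-5, osmotin and zeamatin, had differences of both signs. PR-5 (Zm.6659.1.A1_at) had 21.0, 59.1 and 75.6 on IM1, IM2 and IM3, against 79.6, 138 and 134 on M1, M2 and M3. The groups were apart, but IM3 and M1 nearly met. The log2 difference was -1.32 ± 0.48 (SE, 95% interval -2.45 to -0.20, limma adjusted p = 0.385), and it was -0.77 without IM1. IM1 lay below a signal of 50, and with 32 added to every signal before the logarithm the difference was -0.87.

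The zeamatin-like protein (Zm.281.1.S1_s_at, LOC542299), named after the antifungal zeamatin of maize seeds, had 96.1, 329.8 and 247 on intercropped arrays, against 219, 301 and 197 on monocropped arrays. The groups overlapped, with IM1 far below the other 5 arrays. Its log2 difference of -0.24 ± 0.44 (SE, limma adjusted p = 0.878) was 0.28 without IM1. This probe set has the same suffix as that of PR-1, so related transcripts may add to its signal.

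Zm.2770.1.A1_at, with weak similarity to an Arabidopsis thaumatin-like protein, had the highest positive difference of all members. Its signals were 481, 608 and 1394 on IM1, IM2 and IM3, against 521, 315 and 364 on M1, M2 and M3. IM3 was far above the other arrays and IM1 was below M1, so that the groups overlapped. The mean was 828 ± 495 in intercropped and 400 ± 108 in monocropped roots (SD, n = 3 each), and the log2 difference was 0.92 ± 0.39 (SE, 95% interval 0.00117 to 1.85, limma adjusted p = 0.45). Without IM3 it was 0.47.

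Both other pathogenesis-related members had higher mean signals in intercropped roots. Zm.6008.1.S1_at was similar to PRH, a homeodomain protein of Arabidopsis, and so named a transcription factor rather than a secreted PR protein. It had 338.5, 384 and 303 on intercropped arrays, against 284, 252 and 259 on monocropped arrays. It was the only member whose intercropped signals were all above the monocropped ones (log2 difference 0.36 ± 0.14, SE, 95% interval 0.033 to 0.69, limma adjusted p = 0.413). Zm.12137.1.S1_at, similar to a pathogenesis-related protein of Arabidopsis, had 232, 160.0 and 121.5, against 152, 92.3 and 140.5, and its groups overlapped (0.40 ± 0.29, SE, limma adjusted p = 0.658).

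The 4 beta-1,3-glucanases, all weakly similar to Arabidopsis enzymes, had small differences. Zm.11678.1.S1_at had 94.9, 121 and 117 on intercropped arrays, against 123, 128 and 141 on monocropped arrays. The groups were apart by a narrow margin, IM2 at 121 beside M1 at 123, and the log2 difference was -0.24 ± 0.15 (SE, limma adjusted p = 0.625). Zm.8484.1.A1_at had 217, 107 and 180, against 270, 184 and 127 (-0.20 ± 0.34, SE). A pair of probe sets of 1 cluster gave nearly the same picture, Zm.15825.1.S1_at with 156, 221 and 258 against 204, 227 and 170.1, and Zm.15825.1.S1_x_at with 176, 257 and 273 against 204.5, 227 and 186. Their log2 differences were 0.0552 and 0.17, and their groups overlapped. The median of the class was -0.0713.

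The wound-induced proteins shared a pattern over the arrays that did not follow the groups. Proteins of this name are small and of poorly known function, and the annotation gives none of them as an inhibitor. All 4 probe sets were weakly similar to the same Arabidopsis protein and may share probes or transcripts, since Zm.18026.1.A1_at and Zm.6681.1.A1_at were assigned to 1 transcript cluster in a later annotation. In all 4, IM1 was the highest and IM2 the lowest intercropped array, and M1 was the highest monocropped array.

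Zm.10180.1.S1_at had 1523, 587 and 1048 on IM1, IM2 and IM3, against 1479, 1033 and 1002 on M1, M2 and M3. Zm.6681.1.A1_at had 1244, 447 and 826, against 936, 733 and 748. For both, the monocropped signals lay inside the range of the intercropped ones. Zm.18026.1.A1_at had 196, 150 and 183, against 493, 182 and 184, and M1 stood apart from the other 5 arrays. Zm.10110.1.A1_at had 324, 77.6 and 112, against 461.5, 167 and 189, the widest spread of any member over the intercropped arrays (4.18-fold). Their log2 differences were -0.24 ± 0.34, -0.0534 ± 0.34, -0.54 ± 0.38 and -0.79 ± 0.58 (SE, in the order given), with limma adjusted p of 0.654 to 0.968. Without M1 the difference of Zm.18026.1.A1_at was -0.0603 and that of Zm.10110.1.A1_at -0.33. The bioB control was highest on M1 as well, and its part in these values was not tested.

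**Figure D4:**
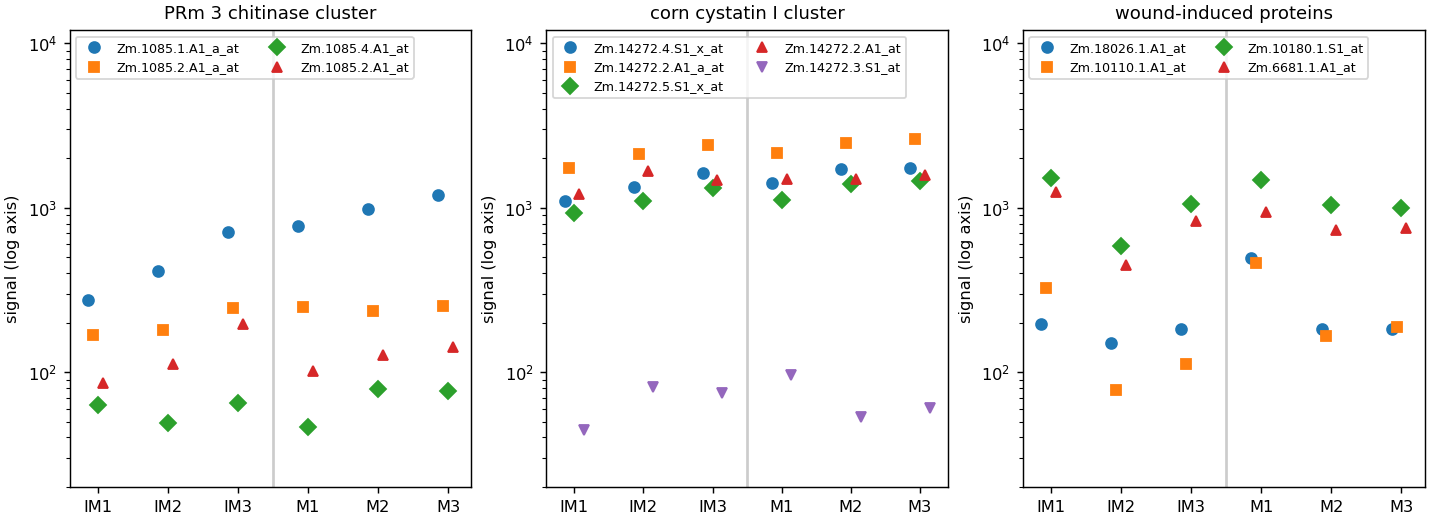
Signal (vertical axis, log scale) on each array, intercropped left and monocropped right, of the 4 probe sets of the PRm 3 cluster, the 5 corn cystatin I probe sets and the 4 wound-induced probe sets, each with its own marker. Zm.1085.1.A1_a_at lies between 276 and 706.5 on intercropped arrays and between 774 and 1201 on monocropped arrays, 4 of the cystatin probe sets lie between 926 and 2616 in both groups, and the wound-induced probe sets are lowest on IM2.

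The cystatins were the largest class, and their differences were small. They ran from -0.28 to 0.16 on the log2 scale with a median of -0.0897, and limma's adjusted p was 0.587 or higher. The groups of 0 of 10 were apart, beside 17.0% of all probe sets tested. Corn cystatin I was covered by 5 probe sets of 1 cluster. Zm.14272.2.A1_a_at, which also matches cystatin2, had 1738, 2115 and 2414 on intercropped arrays, against 2161, 2490 and 2616 on monocropped arrays. Its groups overlapped and its log2 difference was -0.22 ± 0.14 (SE). Zm.14272.4.S1_x_at had 1102, 1332 and 1620, against 1420, 1726 and 1731 (-0.28 ± 0.16, SE, limma adjusted p = 0.587), the largest difference of the class.

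Zm.14272.5.S1_x_at had 926, 1096 and 1316, against 1115, 1386 and 1455 (-0.25 ± 0.17, SE). Zm.14272.2.A1_at had 1212, 1680 and 1474, against 1484, 1498 and 1577 (-0.0748 ± 0.13, SE). These 4 probe sets all had a difference below 0, with a median of -0.24, and on all 4 IM1 was the lowest of the 6 arrays. The fifth, Zm.14272.3.S1_at, lay near a signal of 50, with 44.3, 81.5 and 74.4, against 96.6, 53.5 and 60.3, and showed no order between the groups.

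The 5 other cystatins had a median log2 difference of -0.0227. The gene cc3 (Zm.3347.1.A1_at) had 64.8, 83.9 and 77.7 on intercropped arrays, against 79.0, 61.8 and 62.5 on monocropped arrays, the only cystatin with a difference above 0 (0.16 ± 0.18, SE). The gene cc7 (Zm.14795.1.A1_at) had 338, 301 and 351, against 488, 241 and 376.5 (-0.10 ± 0.25, SE). Of these 5, Zm.13209.1.A1_at had the smallest p, with 97.8, 123.6 and 117 against 147, 126 and 123.5 (-0.23 ± 0.16, SE, limma adjusted p = 0.639), and IM2 just inside the monocropped range. Zm.4573.1.A1_at and Zm.3246.1.S1_a_at lay at 883 to 1326 and 1517 to 1939 on intercropped arrays, against 1041 to 1112 and 1531 to 1891 on monocropped arrays. Their 95% intervals were -0.39 to 0.35 and -0.32 to 0.31 on the log2 scale, and reflect only how much these samples varied.

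Across the classes, the intercropped arrays differed more among themselves than the monocropped arrays did. The ratio of the highest to the lowest signal was larger among the intercropped arrays for 30 of 34 members (88.2%) and for 65.1% of all probe sets tested. Its median over the members was 1.73 in intercropped and 1.42 in monocropped roots, beside 1.34 and 1.24 over all probe sets. For the 6 members that were lower with an unadjusted p under 0.05 the ratio ran from 1.76 to 3.6 in intercropped and from 1.18 to 2.1 in monocropped roots.

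IM1 was the lowest intercropped array for 20 of 34 members (58.8%), against 38.8% of all probe sets, and for 8 of 10 cystatins. IM3 was the highest intercropped array for 16 of 34 (47.1%), against 35.5%. Relative to each member's mean over the 6 arrays, the median log2 signal was -0.30 on IM1, -0.13 on IM2 and 0.0701 on IM3, against 0.149 on M1, 0.0756 on M2 and 0.0246 on M3. The heat map shows that the wound-induced proteins run against this order and that uiu5(chn) was lowest on IM3.

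**Figure D5:**
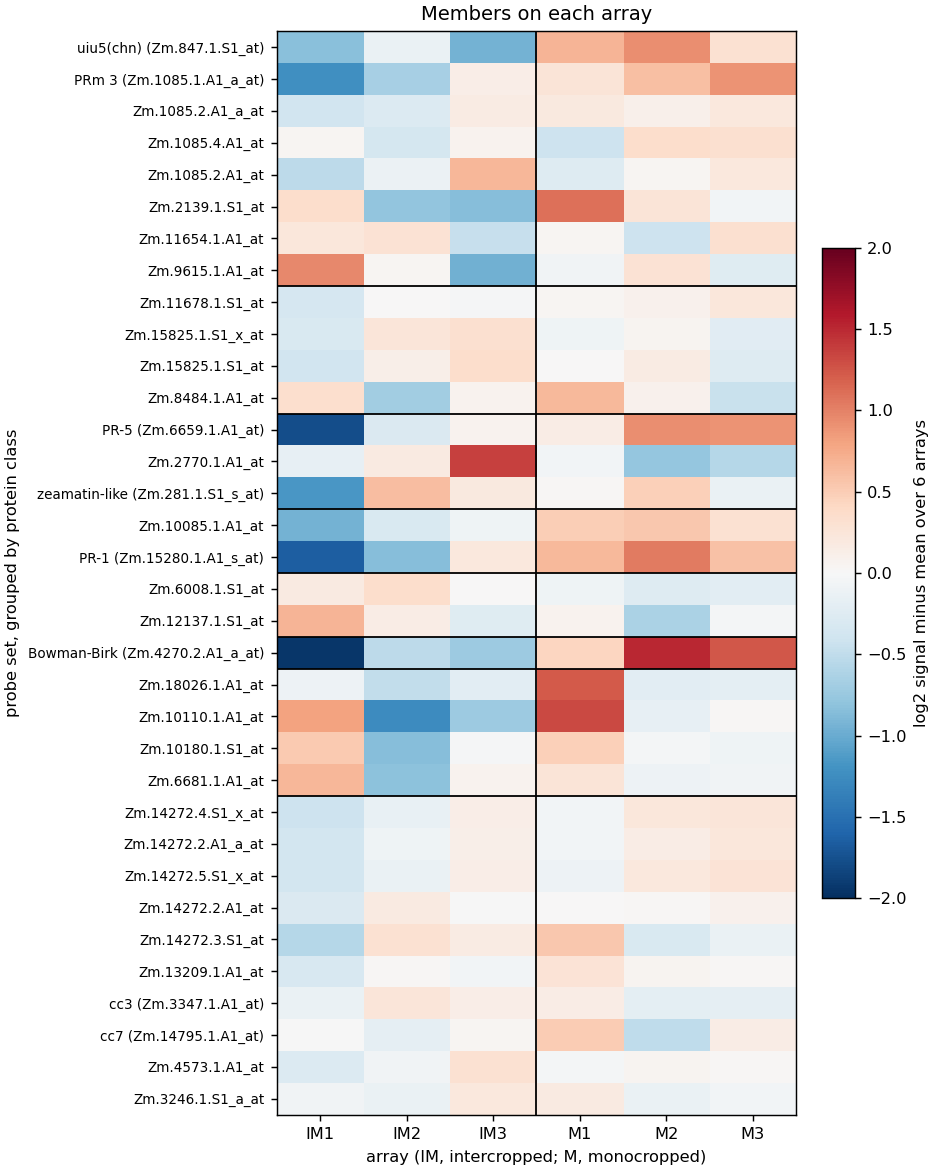
Log2 signal of the 34 members (vertical axis, grouped by class) on each array (horizontal axis, intercropped left and monocropped right), less the member's mean over the 6 arrays, in blue below and red above the mean. Bowman-Birk, PR-1 and PR-5 are darkest blue on IM1, the wound-induced proteins are blue on IM2 and red on IM1 or M1, and the cystatins are pale throughout.

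In the authors' deposited table, which comes from their own permutation test (SAM), 3 of the 34 members had a q-value under 20%, against 330 of 12255 probe sets (2.69%), and 0 had one under 5%, against 5 of 12255. These 3 were uiu5(chn) and the Bowman-Birk inhibitor, each with a q-value of 12.34%, and Zm.10085.1.A1_at with 19.6%. PR-1 followed with 22.38% and PRm 3 with 24.27% in the authors' deposited table. Both tests rest on the same 6 arrays.

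A further pair of lists of defence genes were counted the same way. Other PR families held 49 probe sets, mostly peroxidases with some germin-like and lipid transfer proteins. None was called by limma, 15 were lower and 3 higher at an unadjusted p under 0.05 (36.7%, beside 11.1% of all probe sets), and the median log2 difference was -0.16. Anionic peroxidase H, one of the secreted peroxidases that cross-link wall polymers, had a log2 difference of -2.10 ± 0.29 (SE, limma adjusted p = 0.129). This was the lowest of the 49, of which 27 (55.1%) lay below 0 and 22 above, beside 48.1% below 0 over all probe sets tested. Other peroxidases were not uniform, with -0.78 for pox3, -0.0776 for pox2 and 0.96 for the putative peroxidase P7X. Defence signalling held 41 probe sets, of which limma called 0, with 9 lower and 3 higher at an unadjusted p under 0.05 (29.3%) and a median of -0.23. The hypersensitive induced reaction gene hir3 had -1.08 ± 0.17 (SE, limma adjusted p = 0.142) and the mlo1 gene, a homolog of the barley mildew susceptibility gene, -1.56 ± 0.49 (SE, limma adjusted p = 0.335). The related genes were not uniform. Log2 differences were -0.23 for hir1, -0.17 for mlo3, 0.23 for mlo2, 0.68 for mlo4 and 0.60 for mlo8. The lipoxygenase LOX5, of the family that starts oxylipin synthesis, had 0.69 ± 0.22 (SE, limma adjusted p = 0.335). The other named lipoxygenases of this list had differences of both signs, and their groups overlapped. Values were -0.41 for LOX8, -0.39 for LOC542495, -0.32 for LOX4, -0.30 for LOX10 and 0.0433 for LOX2. The gene listed as LOX had 1.02 and 0.98 on its probe sets. Relative to both lists, the members had a smaller share at an unadjusted p under 0.05 (23.5%), which was not tested.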

How the data were processed

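Each of the 6 samples was measured on 1 Affymetrix array. The deposited intensities are linear. The submitters' processing notes name GCOS 1.4 without its role. How the probes were summarised and whether arrays were scaled to a target is not given in the sources used here, and the array medians are nearly equal. The authors' filtered table holds the same values as log2. Per the file headers, the deposited SAM output (unpaired, 100 permutations) adds a score, a log2 difference, a fold ratio and a q-value in percent. Array labels in its second block differ from the sample titles, so its columns per sample were not used.

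Of 17734 probe sets, 179 controls were left out, and 13116 with a signal of at least 50 on at least 3 arrays were tested. Signals below 1 were set to 1. Log2 signals were fitted with limma 3.58.1 in R 4.3.3 (eBayes with trend=TRUE). P-values were two-sided and adjusted by Benjamini-Hochberg over all 13116, and the fit was tested on simulated data. The number of arrays limits the precision. The median SE was 0.18. No member was below 50 on more than 1 array of a group.

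Members and lists were chosen with earlier results of these data known. Wound-induced proteins, PR-1 and PR-5 were placed in classes by name alone. Named in full were the members the rule states, those with the smallest p, the highest mean signal and the largest opposite difference of each class, and the rest of the classes of 4 or fewer. Names came from the array annotation, and 9 of the members' 10 gene IDs had an entry in RefSeq's genes of Zm-B73-REFERENCE-NAM-5.0. No sequence was printed. Alternatives were 2 normalizations, 3 filters, another offset, eBayes without trend, array weights, the replicate number as a block, and leaving out each array or both numbered 1. A further alternative kept 1 probe set per cluster from the main fit, without a new fit. Same-numbered arrays were not paired in the main fit. Their deviations from group means correlated at 0.268, -0.0692 and -0.00411 for numbers 1, 2 and 3. These values cannot settle whether the design paired the arrays, which the labels do not state.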

Additional observations from a re-analysis of the deposited data

How the results depend on the processing

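Limma called 0 members under each of the 17 alternatives, and the lowest adjusted p of any member was 0.0577. The alternative with 1 probe set per cluster took members from the main fit without a new fit, so its 0 calls were fixed in advance. On the whole array, limma called 34 probe sets without intercropped replicate 1 and 1 with log2 of the signal plus 32, and 0 in the other settings. Members lower at an unadjusted p under 0.05 numbered 6, with 1 array left out 5 to 9, and otherwise 4 to 9. In the main fit limma gave 5.51% of all probe sets tested lower and 5.6% higher at this threshold. Shares over all probe sets were not counted for the alternatives, so changes in the counts of members may not be particular to them. Members higher numbered 2, and 1 after quantile normalization, with the filter at a mean signal of 100, with the authors' probe sets, with log2 of the signal plus 32 and with trend=FALSE, but 0 with equal array medians and 0 with the replicate block. With 1 array left out they numbered 0 to 2. The replicate block gave 9 lower members, and the limma adjusted p was then 0.16 for the Bowman-Birk inhibitor and for uiu5(chn). The median of the members ran from -0.28 to -0.11 with 1 array left out. The chitinase median, -0.25 over 8 probe sets, became -0.48 without both arrays numbered 1 (added after seeing the data). It was -0.60 over the 6 chitinases kept by the filter at a mean signal of 100. With 1 probe set per cluster it was -0.87 over 5. Both of these values come from the smaller sets, since the difference of each kept chitinase was unchanged. The thaumatin-like median ran from -0.61 to 0.28 with 1 array left out, that of the glucanases from -0.19 to 0.0744 and that of the cystatins from -0.21 to -0.0294. Without both arrays numbered 1 the cystatin median was 0.0591. Of the 34 members, 21 kept their sign under each alternative run, a share that was not computed over all probe sets. The 6 lower members were among the 21. Their groups did not overlap, so leaving out, weighting or blocking arrays could not change their sign, and their kept sign is no support. Signals near 50 limit what can be read from PR-5, Zm.10085.1.A1_at, Zm.1085.4.A1_at, Zm.11654.1.A1_at and Zm.14272.3.S1_at.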

Other observations

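Some probe sets of the same families were not reached by the words that chose the members, and they were picked here after their values were seen. PRm 6b (Zm.791.1.S1_s_at), which the annotation assigns to a beta-1,3-glucanase transcript, had 69.0, 91.3 and 366 on IM1, IM2 and IM3, against 1088, 519 and 530.4 on M1, M2 and M3. The groups were apart, and the log2 difference was -2.34 ± 0.62 (SE, limma adjusted p = 0.278), whereas the 4 glucanases among the members lay between -0.24 and 0.17. As for PR-1, the suffix of the PRm 6b probe set marks probes that can also match related transcripts, so more than 1 gene may add to its signal. A defence-related protein annotated with chitinase activity (Zm.1506.1.A1_at) had 250.3, 628 and 463, against 598, 1524 and 1450.0, with overlap between IM2 and M1 (-1.39 ± 0.45, SE, limma adjusted p = 0.335).

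A subtilisin-chymotrypsin inhibitor, which acts on serine proteases, was covered by 3 probe sets of 1 cluster. Their log2 differences were -0.30, -0.0295 and 0.41, with limma adjusted p of 0.779, 0.966 and 0.497. The probe set at 0.41, Zm.301.2.A1_x_at, had 63.65, 76.2 and 56.2 on intercropped arrays, against 55.8, 41.6 and 49.85 on monocropped arrays. All its intercropped signals were above all monocropped ones, as for 8.29% of all probe sets tested, and several lay near 50. The members' clusters held 7 further probe sets that were not in the authors' comparison table and were not tested. In 5 of the 7 the groups overlapped, and in 2 all intercropped signals were below all monocropped ones, as for 8.69% of all probe sets tested. These 2 were Zm.15280.2.A1_at of the PR-1 cluster, with 12.4, 19.1 and 29.1 on intercropped arrays, against 40.1, 51.1 and 39.7 on monocropped arrays, and Zm.14272.3.A1_at of the corn cystatin I cluster, with 17.9, 24.9 and 24.0, against 29.1, 29.1 and 25.4. Apart from Zm.15280.2.A1_at on M2, all these signals lay below 50, which limits what can be read from them. Among the 5 was Zm.281.1.S1_at of the zeamatin-like cluster, with 21.2, 96.4 and 39.4 on intercropped arrays, against 45.05, 54.6 and 36.75 on monocropped arrays. Its mean was 52.3 ± 39.2 in intercropped and 45.5 ± 8.95 in monocropped roots (SD, n = 3 each). The higher intercropped mean came from IM2, and most of its signals lay below 50.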
